A study of Rattus norvegicus with 8 samples.

Results

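The 10 genes described here handle iron in the liver, and they were chosen by name, as Hamp, Tf, Tfrc, Tfr2, Slc40a1, Slc11a2, Hfe, Fth1, Cp and Steap3. They account for 10 of the 27110 gene names on a 1-colour Agilent rat array and for 16 of its 45598 probes. All samples came from livers of F344 rats that received 2 injections of retrorsine (Ret), a plant alkaloid that stops mature hepatocytes from dividing, followed by partial hepatectomy (PH). In such livers small hepatocyte-like progenitor cells (SHPCs) grow as clusters among the blocked mature hepatocytes (MHs). Cells were cut from frozen sections by laser microdissection (LMD), and transplanted recipients were killed 2 weeks after transplantation. There were 2 samples of MHs and 3 samples of SHPC clusters from control livers, called control SHPCs, and 3 samples of SHPC clusters from livers that had received bone marrow-derived mesenchymal cells through the spleen, called SHPCs with BM-MCs. The titles do not say which livers the MHs came from, and the paper's discussion of its array clustering refers to MHs of livers given BM-MCs. MHs and control SHPCs may therefore also differ in transplantation. By the labels every sample is of the DPPIV+ strain, but in the methods the recipients were females of the DPPIV-negative strain and the DPPIV+ strain supplied male animals and the BM-MCs. Which animal gave which sample is not stated, and p-values therefore measure only how far these samples spread, which may be technical. A cut cluster can also hold sinusoidal, macrophage and blood cells.

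Iron travels in plasma bound to transferrin (Tf), enters cells through transferrin receptor 1 (Tfrc), is reduced in the endosome by Steap3, crosses into the cytosol through Slc11a2 and is stored in ferritin, whose heavy chain is Fth1. Ferroportin (Slc40a1) is the only known iron exporter, and ceruloplasmin (Cp) oxidises the iron that it releases. Hepatocytes secrete hepcidin (Hamp), the hormone that removes ferroportin from the cell surface, and they set its level through BMP and SMAD signalling with the help of Hfe, transferrin receptor 2 (Tfr2) and hemojuvelin, and through IL-6 and STAT3 in inflammation. When iron is short, iron regulatory proteins stabilise the Tfrc message and block translation of ferritin.

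The 160 bases before the annotated start of Hamp are shown because Hamp is the regulated output of the pathway, with the same stretch of Tfrc for comparison. Both were taken from RefSeq on build GRCr8 and are written in the direction of transcription. Capitals in the Hamp stretch mark GGCGCC, the core of the BMP-responsive element, and TTCTTGGAA, a STAT site. Capitals in the Tfrc stretch mark GGCGCC and ACGTG, the core of the hypoxia-response element.
Hamp, chr1:95300272-95300431, minus strand: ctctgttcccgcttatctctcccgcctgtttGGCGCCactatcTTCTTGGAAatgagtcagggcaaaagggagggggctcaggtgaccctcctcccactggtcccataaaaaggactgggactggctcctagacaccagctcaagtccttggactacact
Tfrc, chr11:81690319-81690478, minus strand: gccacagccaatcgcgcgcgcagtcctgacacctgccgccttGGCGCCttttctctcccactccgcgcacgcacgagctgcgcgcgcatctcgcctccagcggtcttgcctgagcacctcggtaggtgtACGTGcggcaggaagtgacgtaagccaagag
In Hamp, GGCGCC began 129 bases and TTCTTGGAA 117 bases before the start. In Tfrc, GGCGCC began 118 bases and ACGTG 31 bases before the start. Both strands of the 250 bases before the start of 33469 RefSeq promoters were searched, and GGCGCC stood in 8.69% of them, TTCTTGGAA in 0.469%, its looser form TTCNNNGAA, which contains it, in 7.67%, and ACGTG in 16.6%. Promoters matched 8 of the 10 genes, and among those 8 only Hamp and Tfrc held GGCGCC, only Hamp held either STAT form and only Tfrc held ACGTG. These matches describe letters in a window and are not sites of measured binding.

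Every value below is the log2 of a probe's processed signal minus the 75th percentile of its own array, so a value of 0 is the level of that percentile and a difference of 1 is 2-fold. Levels of different probes cannot be set against each other. Where a gene had more than 1 probe, the brighter is given first as its main probe. All 16 probes were well above background on each of the 7 arrays with complete marks, and all were among the 23065 probes tested. The 8 arrays lay on 1 slide in 2 sets of 4. The first set held both MHs and control SHPC replicates 1 and 2, and the second held control SHPC replicate 3 and the 3 SHPCs with BM-MCs. Transplantation and position on the slide therefore largely coincide. Control SHPC replicate 3 stood apart in erythroid markers, and values without it are given beside several results. The 6 hepatocyte markers were well above background on all 7 of these arrays (summed signal between 495.8 and 669.9 times the 75th percentile over the 8 samples). Of 6 granulocyte markers Camp, Elane and Mpo were not tested, and the summed signal of the list was 0.411 and 1.53 in MHs, 1.16 to 1.61 in control SHPCs and 0.383 to 0.503 in SHPCs with BM-MCs; its part in the results was not tested. With 2 or 3 arrays in a group, precision is limited throughout by their number.

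Hamp, the hepcidin gene, spanned 0.99 over the 8 samples, with its widest spread among SHPCs with BM-MCs (0.81) and its narrowest among control SHPCs (0.20). It was at 5.71 and 6.18 in MHs. In control SHPCs it was at 6.50, 6.30 and 6.35, and in SHPCs with BM-MCs at 5.92, 5.89 and 6.70. Both MHs were below every control SHPC sample, whereas the SHPCs with BM-MCs held the highest value of all 8 and also 2 values below every control SHPC sample. The difference was -0.44 (SE 0.27, 95% interval -1.07 to 0.19) for MHs against control SHPCs and -0.21 (SE 0.23, 95% interval -0.78 to 0.35) for SHPCs with BM-MCs against control SHPCs. Neither passed (limma with Benjamini-Hochberg adjustment, adjusted p = 0.40 and 0.66). SHPCs with BM-MCs and MHs differed by 0.23 (adjusted p = 0.74 from limma). The first value was -0.20 without MHs replicate 1 and -0.68 without MHs replicate 2. A single sample also moved the difference between the SHPC groups, because without SHPCs with BM-MCs replicate 3 it was -0.48 (adjusted p = 0.15 from limma), and without replicate 2 it was -0.075.

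Hfe, an MHC class I-like protein that binds Tfrc, and Tfr2, the hepatocyte's sensor of iron-loaded transferrin, act upstream of Hamp. Tfr2 was at 5.47 and 5.55 in MHs, at 5.35, 5.41 and 5.40 in control SHPCs and at 5.37, 5.60 and 5.43 in SHPCs with BM-MCs. Its 8 values spanned 0.25, the smallest span among the 10 main probes. The 95% intervals of its differences ran from -0.18 to 0.35 for SHPCs with BM-MCs and from -0.15 to 0.40 for MHs, both against control SHPCs. A second, dimmer Tfr2 probe, which lies elsewhere in the gene, gave 0.0083 and -0.078 for the same comparisons. Hfe was at -1.80 and -1.99 in MHs, at -1.87, -1.90 and -1.63 in control SHPCs and at -1.92, -1.996 and -1.79 in SHPCs with BM-MCs. The 3 groups overlapped at its main probe. The second Hfe probe was dim, between -5.22 and -4.16, and read lower than control SHPCs in every sample of the other groups, by -0.47 with BM-MCs and by -0.54 in MHs (limma, adjusted p = 0.35 and 0.30), so the Hfe probes differed in this respect.

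Tf, the plasma iron carrier, is secreted by hepatocytes in large amounts. It was at 7.92 and 7.75 in MHs, at 7.85, 7.76 and 7.99 in control SHPCs and at 7.54, 7.74 and 7.93 in SHPCs with BM-MCs. The groups overlapped, and the 95% intervals of its differences from control SHPCs ran from -0.47 to 0.21 with BM-MCs and from -0.39 to 0.33 in MHs. The sign of the MH difference, -0.032, depended on the scaling. With none it was 0.056, but that moved all tested probes of the comparison by a median of 0.088.

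Tfrc, the receptor that brings Tf into the cell and a gene that dividing cells are known to express strongly, varied most of the 10, over a span of 2.06. It was at -0.54 and 0.14 in MHs, at 1.04, 1.26 and 1.52 in control SHPCs and at 0.029, 0.77 and 1.14 in SHPCs with BM-MCs. Both MHs were below every control SHPC sample, and the SHPCs with BM-MCs lay between, overlapping both groups. Group means were -0.20 ± 0.48 (SD, n = 2) in MHs, 1.27 ± 0.24 (SD, n = 3) in control SHPCs and 0.65 ± 0.57 (SD, n = 3) in SHPCs with BM-MCs. The MH mean was 2.77-fold below that of control SHPCs, a log2 difference of -1.47 (SE 0.35, 95% interval -2.29 to -0.65, unadjusted p = 0.0035 and adjusted p = 0.11 from limma). It did not pass the threshold of 0.05. With an intensity trend in the variance it did (adjusted p = 0.044 from limma), and over the alternatives other than the methods' t-test the adjusted p ran from 0.044 to 0.39. SHPCs with BM-MCs were 0.84 above MHs (SE 0.35, adjusted p = 0.37 from limma), which was 0.50 without MHs replicate 1 and 1.19 without MHs replicate 2. They differed from control SHPCs by -0.62 (SE 0.30, adjusted p = 0.35 from limma). Without SHPCs with BM-MCs replicate 1 this difference was -0.31, and without replicate 3 it was -0.87. Within the first slide set the MHs differed from control SHPC replicates 1 and 2 by -1.35. In the second, the SHPCs with BM-MCs differed from control SHPC replicate 3, the only control there, by -0.87. Neither was tested. The Tfrc probe was spotted at 2 places on each array, and the spots differed by between 0.014 and 0.13, less than the span of any group (0.48 to 1.12).

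**Figure D1:**
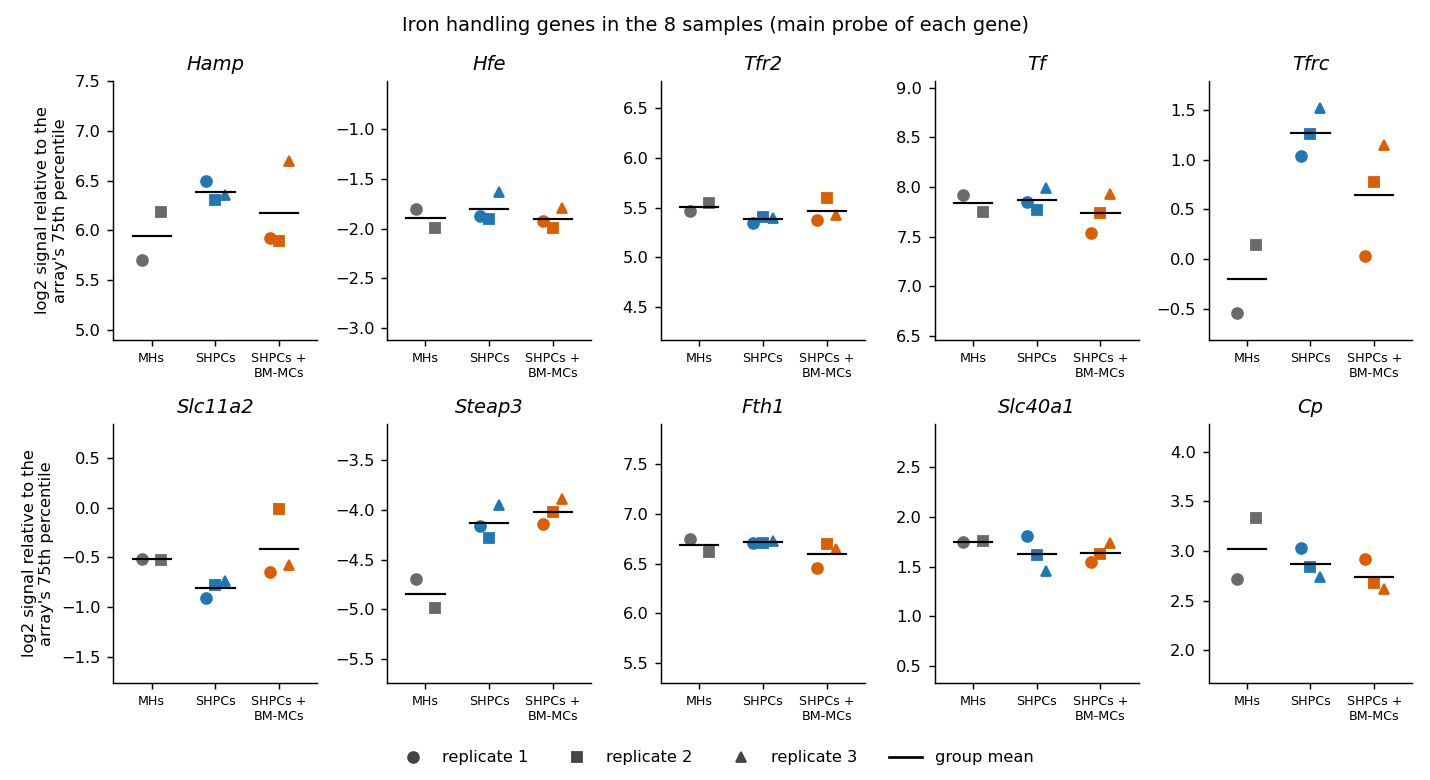
Each panel plots the log2 signal of 1 gene's main probe minus its array's 75th percentile (y axis, each panel 2.6 log2 units high) for MHs (grey), control SHPCs (blue, marked SHPCs) and SHPCs with BM-MCs (orange); symbols are replicates and lines are group means. Tfrc spans 2.06 and has both MHs below every control SHPC sample, whereas Tfr2 spans 0.25.

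Slc11a2, which carries iron out of the endosome, and Steap3, the reductase that precedes it there, had different orders of group means. Slc11a2 was at -0.52 in both MHs, at -0.91, -0.78 and -0.74 in control SHPCs and at -0.65, -0.013 and -0.58 in SHPCs with BM-MCs. Every sample of the other groups was above every control SHPC sample, and SHPCs with BM-MCs replicate 2 was the highest. The difference was 0.40 (SE 0.19, 95% interval -0.063 to 0.86) with BM-MCs and 0.29 (SE 0.20, 95% interval -0.17 to 0.75) in MHs, and neither passed (limma, adjusted p = 0.35 and 0.45). Without SHPCs with BM-MCs replicate 2 the first was 0.20. The array carries a second Slc11a2 probe with the same 60 bases, so it is a repeat measurement and not a second line of evidence. It gave 0.42 and 0.39, and the pair differed by at most 0.082 in any sample.

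Steap3 was dim but well above background, at -4.70 and -4.98 in MHs, at -4.16, -4.28 and -3.95 in control SHPCs and at -4.14, -4.02 and -3.89 in SHPCs with BM-MCs. The lowest signal well above background lay between -6.32 and -5.61 on the 8 arrays. Both MHs were below all 6 SHPC samples. Against control SHPCs the MHs differed by -0.71 (SE 0.16, 95% interval -1.08 to -0.34, unadjusted p = 0.0023 and adjusted p = 0.097 from limma). Against MHs, SHPCs with BM-MCs were higher by 0.82 (SE 0.16, 95% interval 0.46 to 1.19, unadjusted p = 0.00096 and adjusted p = 0.12 from limma). These missed the threshold, as they did with the slide set as a block (0.55 for SHPCs with BM-MCs against MHs, adjusted p = 0.77 from limma). Normexp background correction together with quantile normalization, on 7 arrays, took the values to -0.37 and 0.33. The SHPC groups differed by 0.11 (95% interval -0.21 to 0.44). The sign depended on the scaling and turned within the second slide set (-0.069), where control SHPC replicate 3 is the only control.

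Fth1, the ferritin heavy chain, was at 6.75 and 6.62 in MHs, at 6.71, 6.70 and 6.73 in control SHPCs and at 6.45, 6.69 and 6.65 in SHPCs with BM-MCs. Every sample with BM-MCs was below every control SHPC sample, but the nearest pair was at 6.69 and 6.70, while the samples with BM-MCs spanned 0.24. The difference was -0.12 (95% interval -0.39 to 0.15), and at a second, overlapping Fth1 probe, where the groups overlapped, it was -0.056. At the main probe it was -0.043 without SHPCs with BM-MCs replicate 1 and -0.16 without replicate 2. Ferritin heavy chain has processed pseudogenes, so signal from near-identical copies cannot be told from that of Fth1.

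Slc40a1, the exporter on which hepcidin acts, was at 1.75 and 1.76 in MHs, at 1.81, 1.62 and 1.45 in control SHPCs and at 1.55, 1.63 and 1.73 in SHPCs with BM-MCs. Both MHs were above every sample with BM-MCs, with a difference of -0.12 (95% interval -0.44 to 0.21) for SHPCs with BM-MCs. The SHPC groups differed by 0.0081 (95% interval -0.31 to 0.33). Its second probe, for which control SHPC replicate 3 was an outlier spot and was left out of the fit, gave -0.064. Macrophages also express Slc40a1, and the 8 macrophage markers, of which all 8 were well above background, had summed signals of 90.2 to 95.5 times the 75th percentile in MHs, 46.6 to 67.7 in control SHPCs and 58.4 to 82.6 in SHPCs with BM-MCs. Their part in the Slc40a1 values was not tested.

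Cp, the copper-containing ferroxidase of plasma, was at 2.71 and 3.33 in MHs, at 3.03, 2.84 and 2.74 in control SHPCs and at 2.91, 2.68 and 2.62 in SHPCs with BM-MCs. The MH samples differed from each other by 0.62, more than the span of either SHPC group. The differences were -0.13 with BM-MCs and 0.15 in MHs against control SHPCs. With 1 sample left out, the first ran from -0.22 (without SHPCs with BM-MCs replicate 1) to -0.049 (without control SHPC replicate 1). The second was 0.46 without MHs replicate 1 and -0.16 without replicate 2. The second Cp probe, in a different stretch of the gene, gave 0.17 and 0.015.

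Between the SHPC groups, limma called 0 of the 10 genes at an adjusted p under 0.05, with 0.0217% of all tested probes called. At an unadjusted p under 0.05 limma counted 0 of the 10 genes (16.6% of all probes, 10.7% higher and 5.93% lower), and the methods' t-test also counted 0 (14.9% of all probes). The groups did not overlap for 2 genes, Slc11a2 and Fth1 (24.7% of all probes). For 9 of the 10 genes, all but Tfrc, the whole 95% interval lay within 2-fold, as it did for 78.3% of all tested probes. The median difference of the 10 genes was -0.11, and that of all tested probes was 0.018.

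Between MHs and control SHPCs, limma called 0 of the 10 genes, with 1.13% of all tested probes called, 0.919% as lower and 0.212% as higher. Tfrc and Steap3 had an unadjusted p under 0.05 (limma, 2 of 10 genes, both lower, against 19.2% of all probes, 8.21% lower and 11% higher). The methods' t-test at its unadjusted threshold counted 4 genes, Tfrc and Steap3 as lower and Tfr2 and Slc11a2 as higher in MHs (17.5% of all probes), and 0 after Benjamini-Hochberg adjustment. The groups did not overlap for 5 genes, which were Hamp, Tfrc and Steap3 on the lower side and Tfr2 and Slc11a2 on the higher side (41.4% of all probes, 18.7% lower and 22.7% higher). These shares rest on 2 MH samples. The 95% interval lay within 2-fold for 7 genes, all but Hamp, Tfrc and Steap3 (72.4% of all probes), and the median difference was -0.031, against 0.032 for all probes.

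For SHPCs with BM-MCs against MHs, limma likewise called 0 of the 10 genes, with 0.338% of all tested probes called, 0.321% as higher and 0.0173% as lower. Steap3 and Tfrc, both higher with BM-MCs, had an unadjusted p under 0.05 (limma, 2 of 10 genes, against 13.3% of all probes, 7.34% higher and 5.96% lower). The methods' t-test counted Steap3 alone (9.26% of all probes). The groups did not overlap for Steap3 and Slc40a1 (32.4% of all probes). The 95% interval lay within 2-fold for 8 genes, all but Tfrc and Steap3 (75.2% of all probes). The median difference was -0.024, against 0.0029. The MH and control samples serve in more than 1 of these comparisons, so the 3 sets of values are not independent.

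**Figure D2:**
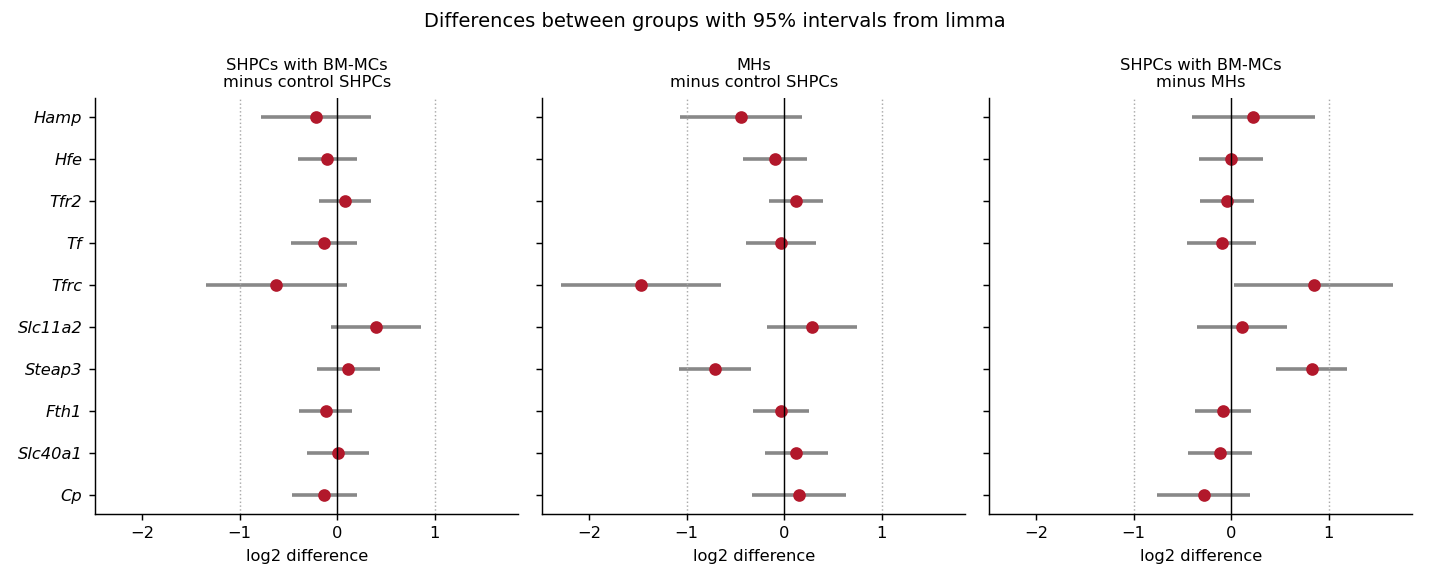
Points are log2 differences between group means of each gene's main probe (x axis) with 95% intervals from limma (bars), in 1 panel per comparison; dotted lines mark 2-fold. In the comparison of MHs with control SHPCs the intervals of Tfrc (-2.29 to -0.65) and Steap3 (-1.08 to -0.34) lie below 0, and in that of SHPCs with BM-MCs with control SHPCs every interval includes 0.

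Markers of dividing cells had, like Tfrc, their lowest group mean in MHs. All 8 proliferation genes were tested, 7 of them well above background on all 7 arrays and Aurkb on 3, with Aurkb below the lowest such signal in both MHs. Their mean, relative to control SHPCs, was -3.07 and -2.80 in MHs, -0.022, 0.15 and -0.13 in control SHPCs and -1.42, -0.91 and -0.48 in SHPCs with BM-MCs. Without Aurkb, a choice made after seeing the data, the MHs were at -3.04 and -2.89. By limma, MHs were lower than control SHPCs for 6 of the 8 (1.13% of all probes called) and lower than SHPCs with BM-MCs for 5 (0.338%), and 0 of the 8 were called between the SHPC groups (0.0217%). The 6 became 0 with the methods' t-test after Benjamini-Hochberg adjustment and 8 with that test unadjusted, and were between 4 and 7 under the other alternatives. The 5 depended on the fit. They became 0 with the replicate block, the slide set as a block, only the 2 groups compared, no filter on dim probes, quantile normalization with or without normexp, the methods' t-test after adjustment, and without either MH sample, control SHPC replicate 1 or 2, or SHPCs with BM-MCs replicate 2. Between the SHPC groups the count stayed at 0 except with the methods' t-test unadjusted. That test counted 6 of the 8 as lower with BM-MCs (14.9% of all probes in either direction). By limma every gene of the list but Birc5 was lower with BM-MCs at an unadjusted p under 0.05 (5.93% of all probes). Ccnb1 had the lowest p, with a difference of -1.04 (unadjusted p = 0.0026 from limma), and Birc5 differed by -0.55 (unadjusted p = 0.28 from limma). Among the SHPCs with BM-MCs, replicate 1 was lowest and replicate 3 highest in both Tfrc and the list. Among control SHPCs the 2 did not run together, since replicate 3 had the highest Tfrc value and the lowest proliferation mean. The part of dividing cells in the Tfrc and Steap3 values was not tested. Young red cells express Tfrc as well. Of 9 erythroid markers with a probe 8 were tested, and Epb42 was well above background on none of the 7 arrays. Their summed signal was 19.9 and 40.0 in MHs, 33.4, 32.1 and 108.0 in control SHPCs and 15.1 to 21.2 in SHPCs with BM-MCs. This sum follows its brightest probes, Hba1 and Hbb-b1, at 6.05 and 5.16 in control SHPC replicate 3. Among control SHPCs the other tested markers were also highest in that replicate, except Slc4a1, which was lowest there (-2.81). Slc4a1 was highest in MHs (-2.04 and -1.93). Control SHPC replicate 3 held both the highest erythroid sum and the highest Tfrc value. Without it Tfrc differed by -1.35 between MHs and control SHPCs, which is the value within the first slide set again, and by -0.50 between the SHPC groups. In captured tissue, fewer cells of a type and less RNA per cell cannot be told apart.

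**Figure D3:**
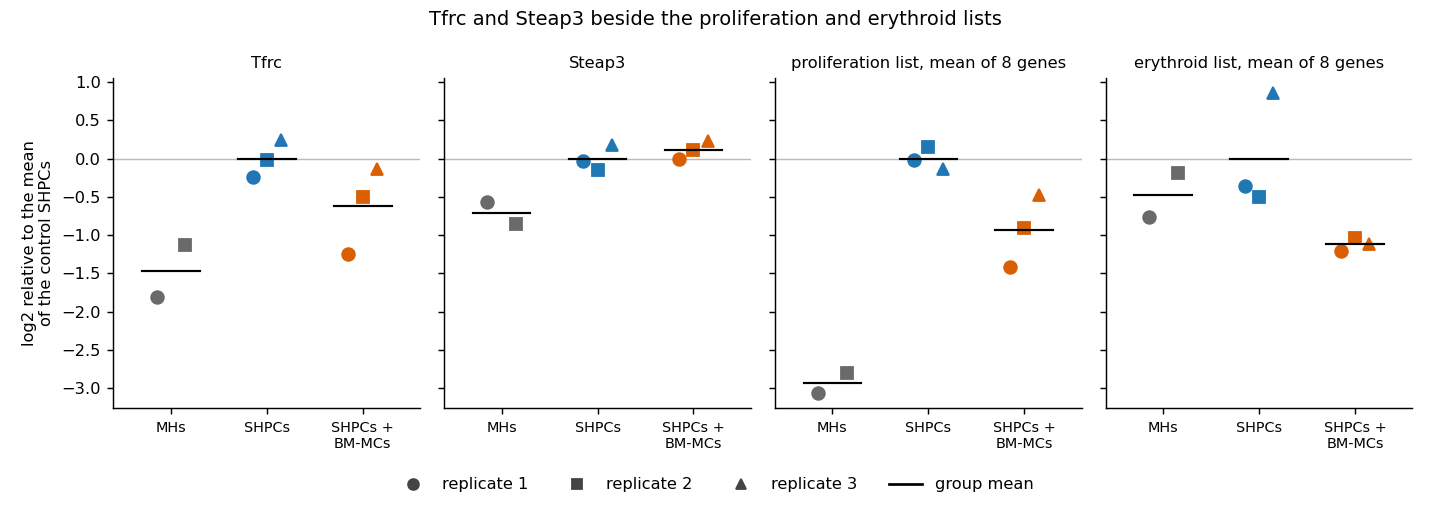
Values of Tfrc and Steap3 and the mean of the 8 tested proliferation and of the 8 tested erythroid markers in each sample, as log2 relative to the mean of the control SHPCs (y axis, shared by the panels), with replicates as symbols and group means as lines. The proliferation mean is at -3.07 and -2.80 in MHs, where the group mean of Tfrc is also lowest, and the erythroid mean is highest in control SHPC replicate 3.

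The genes whose centred profile over the 8 samples was closest to that of Hamp were Wrap53, Nudt4 and Insig1. Their root mean square differences from Hamp were 0.068, 0.12 and 0.12, where the median over all tested probes was 0.40. Insig1, which restrains cholesterol synthesis, was at 1.71 and 1.87 in MHs, at 2.15, 2.15 and 2.35 in control SHPCs and at 1.67, 1.74 and 2.51 in SHPCs with BM-MCs. Like Hamp, it was highest in SHPCs with BM-MCs replicate 3. The genes closest to Tfrc were Ndc1, a nucleoporin of the membrane ring, Clybl and the citrate carrier Slc13a5, with differences of 0.18, 0.20 and 0.20 where the median was 0.71. Slc13a5 was at -3.65 and -2.97 in MHs, at -1.93, -1.89 and -1.98 in control SHPCs and at -3.14, -2.50 and -1.61 in SHPCs with BM-MCs. This likeness is a description over 8 samples, taken as the closest of all tested probes with a gene name.

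A wider set of 89 iron and haem genes, in 7 lists, was examined in the same fits. Of these, 88 had a probe and 81 were tested. Bmp6, Acvr1, Erfe, Epo, Ltf, Ftmt and Hephl1 were not well above background on any of the 7 arrays. Limma called 0 of the 81 in either direction in each of the 3 comparisons. At an unadjusted p under 0.05 it counted 5 higher and 3 lower with BM-MCs against control SHPCs (9.88%, against 16.6% of all probes). It counted 15 higher and 2 lower in MHs against control SHPCs (21%, against 19.2%), and 2 higher and 10 lower with BM-MCs against MHs (14.8%, against 13.3%).

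Of the 81 genes, the 3 with the lowest p between the SHPC groups were among the 25 tested genes that signal to hepcidin. All 3 missed the threshold. At an unadjusted p under 0.05 limma counted 2 of the 25 as higher and 2 as lower with BM-MCs (16%, against 16.6% of all probes). Smad4, the shared SMAD partner, was dim and differed by -0.51 with BM-MCs (adjusted p = 0.22 from limma). Hjv, the hemojuvelin BMP co-receptor of hepatocytes, was at 0.13, 0.13 and 0.52 in control SHPCs and at -0.14, -0.20 and -0.16 with BM-MCs, a difference of -0.43 (SE 0.14, adjusted p = 0.24 from limma). Socs3, a feedback inhibitor induced by STAT3, was at -0.53, -0.50 and -0.67 in control SHPCs and at -0.34, 0.37 and -0.040 with BM-MCs, a difference of 0.56 (SE 0.19, adjusted p = 0.25 from limma), and it was 0.66 above MHs (adjusted p = 0.30 from limma). For these 3 genes the SHPC groups did not overlap (24.7% of all probes). Atoh8, a BMP-responsive transcription factor, had the lowest p between SHPCs with BM-MCs and MHs, at 1.14 higher with BM-MCs (SE 0.33, adjusted p = 0.28 from limma). Id1 and Smad7, which BMP signalling also induces, differed from control SHPCs by -0.29 and 0.15 with BM-MCs and by -0.94 and -0.18 in MHs (adjusted p = 0.20 from limma for Id1 in MHs, the lowest of the 4). With BM-MCs, Id1 was at -0.99, -0.92 and 0.12 and Smad7 at -0.68, -0.50 and -0.024, so replicate 3 was the highest in both. With 1 sample left out in turn, the difference with BM-MCs ran from -0.65 (without that replicate) to -0.099 (without replicate 1) for Id1. For Smad7 it ran from -0.040 (without replicate 3) to 0.29 (without replicate 1), so its sign turned. Without control SHPC replicate 3, Smad7 in MHs differed by -0.082. Tmprss6, the protease that cuts hemojuvelin, differed by 0.039 and 0.070, which with 1 sample left out ran from -0.046 to 0.20 with BM-MCs and from -0.18 to 0.32 in MHs. The 25 genes split into 13 higher and 12 lower with BM-MCs, and into 12 and 13 in MHs.

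In haem scavenging and breakdown, 8 of 8 tested genes were higher in MHs than in control SHPCs, with a median of 0.46 against 0.032 over all probes, and 4 of them had an unadjusted p under 0.05 (limma, against 19.2% of all probes and 11% higher). The smallest of these differences was that of Hp, 0.0066 (95% interval -0.32 to 0.33). Blvrb, which reduces biliverdin, had the lowest p of the 81 genes, at 3.19 and 3.10 in MHs and 2.38, 2.55 and 2.32 in control SHPCs, a difference of 0.73 (SE 0.13, adjusted p = 0.057 from limma). Hpx, the haem-binding plasma protein, differed by 0.53 (adjusted p = 0.24 from limma) and Hmox1, which opens the haem ring, by 0.68 (adjusted p = 0.27 from limma). Hmox1 was at 0.31 and 0.34 in MHs, at -0.067, -0.020 and -0.96 in control SHPCs and at -0.070, 0.15 and -0.41 with BM-MCs. Control SHPC replicate 3 was the lowest of the 8, and without it the difference was 0.37 in MHs and -0.067 with BM-MCs. Cd163, the haemoglobin-haptoglobin receptor of macrophages, differed by 0.56 in MHs and by 0.55 with BM-MCs (adjusted p = 0.25 and 0.30 from limma). Without control SHPC replicate 3 these differences were 0.42 and 0.40. The macrophage list to which Cd163 belongs had a mean of 0.43 and 0.61 in MHs, of 0.20, 0.13 and -0.33 in control SHPCs and of 0.41, 0.30 and -0.053 in SHPCs with BM-MCs, and its part in these values was not tested. Against control SHPCs, 7 of the 8 were higher with BM-MCs too, Hmox1 among them with all samples, with a median of 0.22. Scaling to array medians moves all probes of that comparison by -0.19, which bears on this direction.

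Alas1, the first and rate-limiting enzyme of hepatic haem synthesis, was at 6.47 and 5.99 in MHs and at 5.29, 5.29 and 4.40 in control SHPCs, a difference of 1.23 (SE 0.32, adjusted p = 0.13 from limma). With BM-MCs it was at 5.58, 5.51 and 5.06, with a mean between those groups and samples that overlapped control SHPCs. Aco1, which becomes iron regulatory protein 1 when it loses its cluster, was 0.55 higher in MHs than in control SHPCs (SE 0.14, adjusted p = 0.13 from limma) and differed by -0.44 between SHPCs with BM-MCs and MHs (adjusted p = 0.31 from limma), or by -0.27 without MHs replicate 1. Ireb2, iron regulatory protein 2, differed by 0.23 and -0.17 in those comparisons, the latter -0.11 without SHPCs with BM-MCs replicate 2. Ftl1, the ferritin light chain, had differences from control SHPCs of -0.10 with BM-MCs and -0.040 in MHs. With 1 sample left out, the first ran from -0.18 (without control SHPC replicate 2) to -0.020 (without SHPCs with BM-MCs replicate 1). The second ran from -0.12 (without control SHPC replicate 2) to 0.027 (without MHs replicate 2). In storage and export, 8 of 8 tested genes were lower with BM-MCs than in MHs, with a median of -0.16 against 0.0029 over all probes, and 2 of them had an unadjusted p under 0.05 (limma, against 13.3% of all probes and 5.96% lower). The smallest of these differences was that of Ncoa4, -0.017. Over the 81 tested genes of all 7 lists, 25 were higher and 56 lower with BM-MCs than in MHs. Scaling to array medians moves all probes of this comparison by -0.20. Slc39a14, which takes up iron not bound to transferrin, was at -1.74 and -1.54 in MHs, below all control SHPCs (-1.41, -1.50 and -0.92), with a difference of -0.36 (adjusted p = 0.40 from limma) that was -0.18 without control SHPC replicate 3. Slc25a37, the mitochondrial iron importer, was dim and differed by -0.71 between SHPCs with BM-MCs and MHs (adjusted p = 0.28 from limma).

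**Figure D4:**
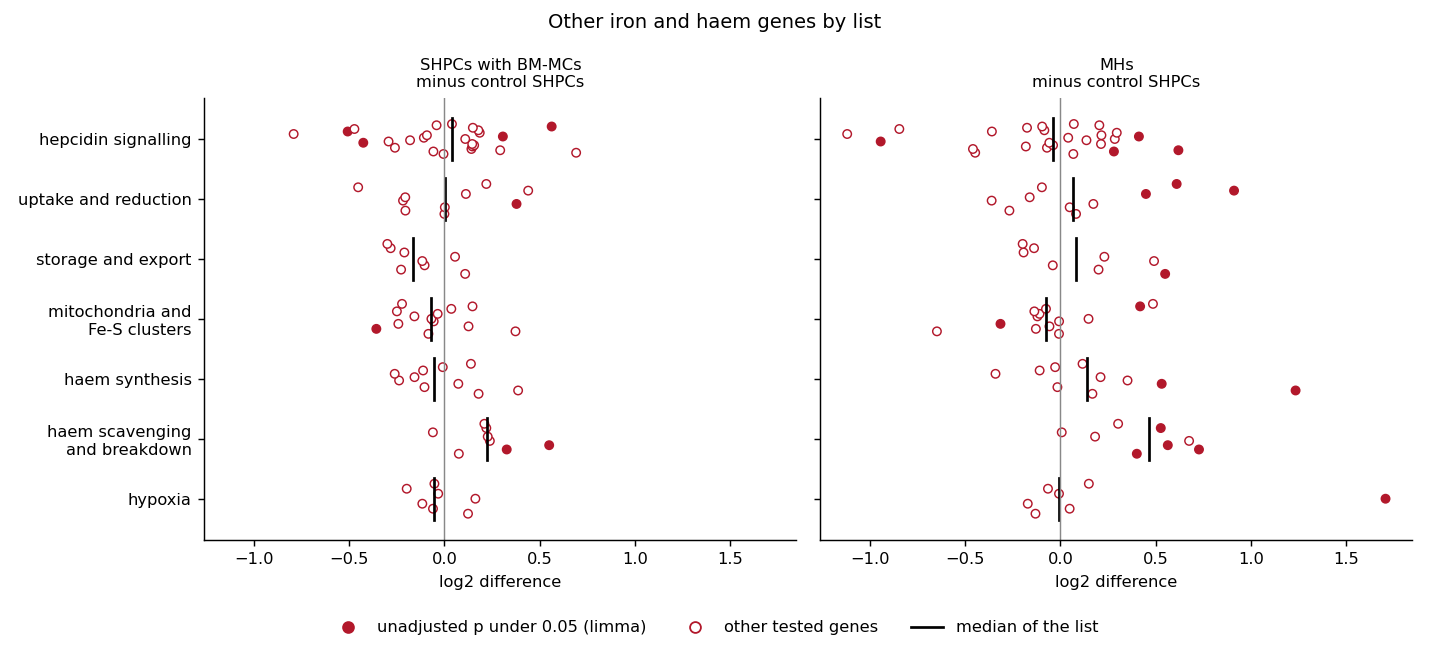
Each point is the log2 difference of 1 tested gene (x axis) in 7 lists of iron and haem genes, for SHPCs with BM-MCs (left) and MHs (right) minus control SHPCs; filled points have an unadjusted p under 0.05 from limma, none passes after adjustment, and black bars are list medians. In haem scavenging and breakdown all 8 points lie above 0 for MHs, with a median of 0.46.

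How far each value depended on the processing is drawn for the 10 genes. Tfrc and Steap3 kept their sign in MHs against control SHPCs under each of the 25 alternatives run, between -1.81 and -1.13 and between -0.85 and -0.37. Slc11a2 stayed above 0 in that comparison, between 0.24 and 0.38, and with BM-MCs against control SHPCs, between 0.20 and 0.51. Hamp stayed below 0 in both comparisons with control SHPCs, between -0.68 and -0.20 in MHs and between -0.48 and -0.075 with BM-MCs. Tf in MHs, Steap3 and Slc40a1 with BM-MCs, and Hfe and Tfr2 between SHPCs with BM-MCs and MHs changed sign under 4 or more alternatives each.

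**Figure D5:**
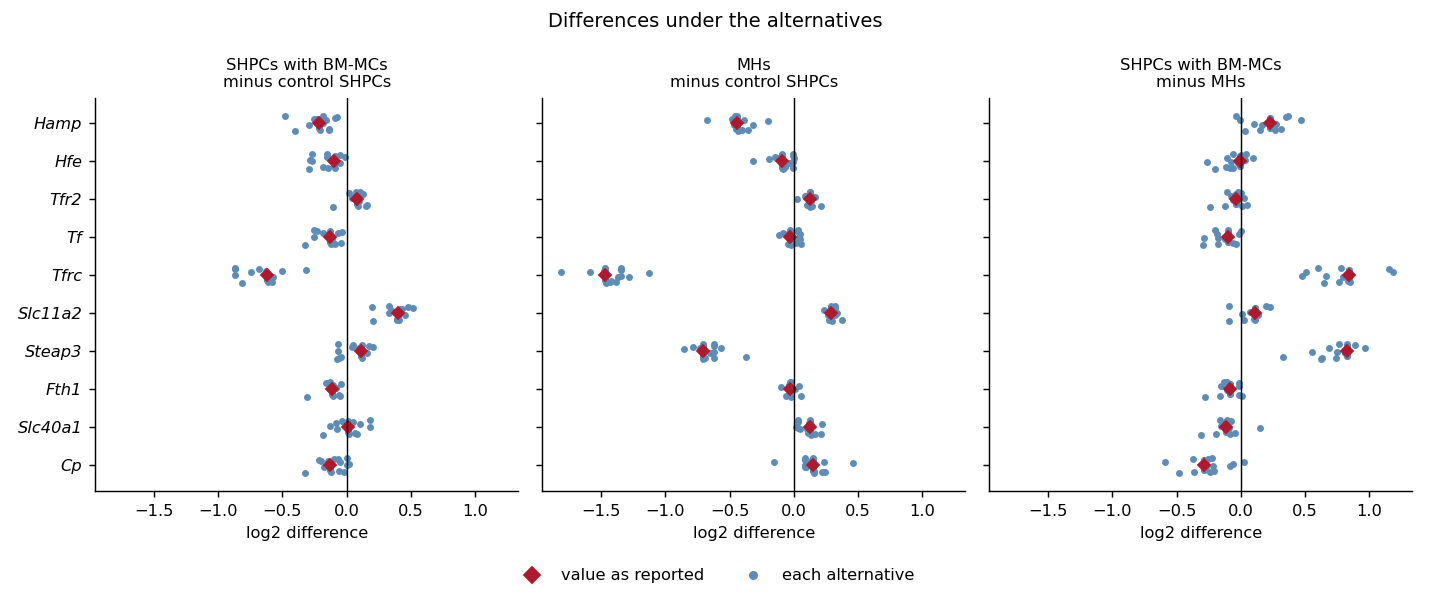
Red diamonds are the log2 differences as reported and blue points those under each alternative (x axis), for the 10 genes in the 3 comparisons. Tfrc in MHs against control SHPCs stays between -1.81 and -1.13, whereas the points of Tf, Hfe and Tfr2 lie on both sides of 0 in at least 1 comparison.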

How the data were processed

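The deposited values are processed signals, intensities that Agilent Feature Extraction (version 10.7 in the submitters' processing notes) had corrected for background and not scaled between arrays. One scanner file, that of control SHPC replicate 2, holds 20903 of 62976 features. The series' value table, with identical intensities, gave its signals, and its marks were not used for the filter. Probe positions and genome build rn4 are those of the array's annotation.

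Signals were set on the log2 scale and each array's 75th percentile was subtracted. Outlier spots were dropped and repeated spots averaged by probe. A probe was tested if 3 or more of the 7 fully marked arrays had it well above background, which left 23065. They were fitted with limma (version 3.58.1, R 4.3.3), with Benjamini-Hochberg adjustment over all of them and a threshold of 0.05. The 6 SHPC samples were fitted alone for the comparison between SHPC groups, and all 8 samples together for the comparisons with MHs. The methods' t-test is Student's test on the values of the 2 groups compared. The fits were tested on simulated data. Between 57.0% and 61.5% of spots were well above background and 0 were marked as saturated.

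The main probe of a gene was its brightest tested probe. From the wider lists, the 3 genes with the lowest p were named in each comparison, since fewer than 2 passed, together with Hjv, Tmprss6, Bmp6, Id1, Smad7, Ftl1, Hmox1, Slc39a14, Aco1, Ireb2, Hpx and Cd163. Other list genes were named through RefSeq by accession or symbol. The 10 genes and the lists were chosen with earlier results of these data known. Alternatives covered scaling, background correction, filters, outlier spots, variance models, blocks, the probe of a gene, the test, and leaving out each sample. Differences of the wider genes with a sample left out, with no test, and proliferation calls under each alternative were added after seeing the data.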

Additional observations from a re-analysis of the deposited data

How the results depend on the processing

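Of 720 values of the 10 genes under alternatives, 672 kept their direction and side of the threshold, 42 changed sign and 6 newly passed, 1 with an intensity trend and 5 with the methods' t-test unadjusted. The number of genes called stayed at 0 except with an intensity trend (1, Tfrc, lower in MHs) and with the methods' t-test unadjusted (4 for MHs against control SHPCs, and 1 for SHPCs with BM-MCs against MHs). With each sample left out in turn the number called was 0 in all 3 comparisons.

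Scaling to each array's median moved the median of all probes by -0.19 between the SHPC groups and by -0.20 between SHPCs with BM-MCs and MHs. It turned the sign of Slc40a1 (-0.18), Steap3 (-0.077) and Tfr2 (-0.11) between the SHPC groups, and of Slc11a2 (-0.090) for SHPCs with BM-MCs against MHs. Quantile normalization turned Steap3 (-0.061) between the SHPC groups, and Fth1 (0.0052) and Tfr2 (0.0086) for SHPCs with BM-MCs against MHs. Normexp background correction together with quantile normalization, on 7 arrays, also gave other signs for Steap3 (-0.046) between the SHPC groups, Tfr2 (0.051) for SHPCs with BM-MCs against MHs and, in MHs against control SHPCs, Tf (0.018). No scaling gave 0.056 for Tf and 0.057 for Fth1 in MHs, with a median shift of 0.088 over all probes. Array weights gave 0.0046 for Tf in MHs and -0.076 for Slc40a1 between the SHPC groups. The mean of all probes of a gene turned Cp (0.022) between the SHPC groups, Fth1 (0.0097) in MHs, and Hfe (0.032) and Tfr2 (0.022) for SHPCs with BM-MCs against MHs. Its value of -0.13 for Slc40a1 between the SHPC groups has no meaning, because control SHPC replicate 3 lacks the dimmer probe and the mean there mixes probe levels. With the slide set as a block, Cp (0.0012) and Steap3 (-0.069) turned between the SHPC groups, Tf (0.030) in MHs, and Slc40a1 (0.15) for SHPCs with BM-MCs against MHs. Values within a slide set, added after seeing the data, gave 0.0012 for Cp, -0.069 for Steap3 and 0.030 for Tf. With this layout they equal the block values by construction, and both are counted among the 720 values. The cause of these turns was not tested.

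With 1 sample left out, values between the SHPC groups that changed sign ran from -0.080 to 0.10 for Slc40a1. Those of Tf (-0.23 to -0.033), Hfe (-0.16 to -0.014), Tfr2 (0.016 to 0.13) and Steap3 (0.040 to 0.21) kept their sign but moved by over 1.5 times. In MHs against control SHPCs the values ran from -0.16 to 0.46 for Cp, -0.099 to 0.037 for Fth1, -0.19 to 0.0049 for Hfe and -0.12 to 0.052 for Tf. For SHPCs with BM-MCs against MHs they ran from -0.59 to 0.025 for Cp, -0.037 to 0.46 for Hamp, -0.10 to 0.090 for Hfe, -0.092 to 0.23 for Slc11a2 and -0.11 to 0.0044 for Tfr2.

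Deviations of same-numbered control SHPCs and SHPCs with BM-MCs correlated at 0.13, 0.078 and 0.17. Those of differently numbered samples of these groups correlated at between -0.15 and 0.082. With 3 samples in a group, centred on their own mean, these values cannot decide whether the replicate numbers pair the samples. With the replicate block, 0 of the 10 genes were called in any comparison, Tf in MHs turned to 0.048, and calls over all probes went from 5 to 0 between the SHPC groups, from 49 higher and 212 lower to 29 and 132 in MHs, and from 74 higher and 4 lower to 0 for SHPCs with BM-MCs against MHs. Calls over all probes also moved by over 1.5 times under other alternatives, among them these. Between the SHPC groups they were 490 higher and 40 lower without control SHPC replicate 3, 300 and 58 with array weights, 207 and 7 with no scaling, and 0 when any 1 of control SHPC replicates 1 and 2 and SHPCs with BM-MCs replicates 1 and 2 was left out. In MHs they were 202 higher and 355 lower with an intensity trend, 6 and 49 without MHs replicate 1, and 214 and 309 without SHPCs with BM-MCs replicate 3. For SHPCs with BM-MCs against MHs they were 7 higher with quantile normalization and 0 without control SHPC replicate 1 or 2.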
